A study of Saccharomyces cerevisiae with 21 samples.

Results

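The coding interiors of long open reading frames were examined in maps of meiotic Spo11 double-strand breaks of Saccharomyces cerevisiae. The set held 175 protein-coding ORFs of 4000 bp or longer out of 6002 protein-coding genes of the nuclear annotation. They were chosen by length alone on the 16 chromosomes without chromosome III, without the first and last 20 kb of each chromosome and without TEL1 and the Ty ORFs. Each interior ran from 500 bp inside the start codon to 500 bp before the stop codon, and together the interiors covered 745823 bp, 6.18% of the nuclear genome outside the rDNA.

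The maps came from CC-seq, which isolates DNA fragments with Spo11 covalently bound to their 5′ ends and counts sequenced ends per base on the Watson and Crick strands. All cultures were diploids sampled at 6 h of meiosis and all carried sae2Δ, under which Spo11 stays on the ends, and the alleles his4X::LEU2, leu2::hisG, arg4-nsp, ura3, lys2 and ho::LYS2. The compared genotypes were sae2Δ ndt80Δ tel1Δ (5 replicates), sae2Δ ndt80Δ (4), sae2Δ tel1Δ (4) and sae2Δ (5), all also nuc1::LEU2, and a single library of sae2Δ ndt80Δ spo11-Y135F, in which the catalytic tyrosine of Spo11 is replaced and NUC1 is intact. Pairs of libraries with the same replicate number were summed, so 21 libraries gave 18 Spo11-active replicates and 1 control. The study's methods call the replicates biological and independent, and p-values measure the spread between them.

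In yeast, Spo11 cuts mostly in the nucleosome-depleted promoters of genes, and the cuts gather in hotspots. Tel1, a kinase related to ATM, restrains further cuts near an existing break, and Ndt80 is the transcription factor that ends meiotic prophase, so cells without it stay in the stage at which breaks form. The bodies of genes are cut much less, and the spo11-Y135F map shows where the assay collects ends without any Spo11 cut.

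The signal across the members lay in promoters, and at 1200 bp past the start codon the median replicate of each genotype was at its interior level. In the 100 bp bin that starts 300 bp before the start codon, the median replicate had 72.1 times the median interior density in sae2Δ ndt80Δ tel1Δ, 30.6 times in sae2Δ ndt80Δ, 14.1 times in sae2Δ tel1Δ and 34.1 times in sae2Δ, against 1.35 times in spo11-Y135F. In the first 100 bp of the interior the same medians were 2.24, 1.38, 1.24 and 1.25, against 1.10 in the control, and in the bin that starts at 1200 bp they were 1.01, 0.99, 0.99 and 0.99, against 1.01. On the 3′ side the signal in the bin that starts 200 bp past the stop codon was 20.5, 8.62, 5.16 and 9.90 times the interior density in the same order of genotypes, against 1.27 in the control. The rise in the bin that starts 1600 bp from the start codon (1.60, 1.41, 1.07 and 1.48 times, against 1.01) is the bin that holds the peak in LYS2 described further on.

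**Figure D1:**
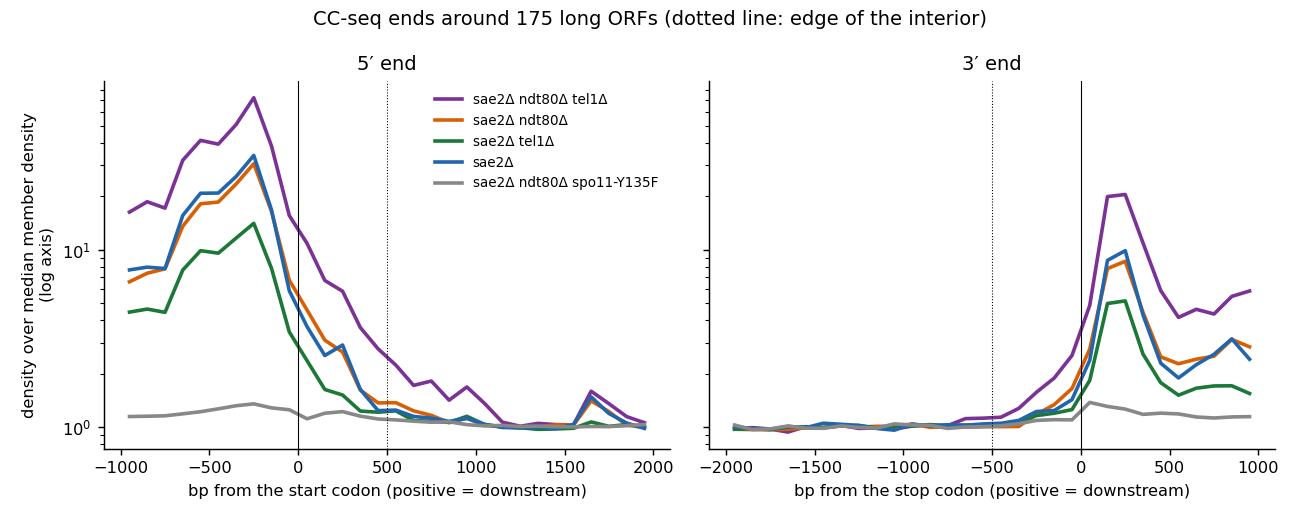
Density of CC-seq ends (both strands, 100 bp bins, log axis) around the start and stop codons of the 175 long ORFs, divided by each library's median density over the member interiors; lines are the median replicate of each genotype and the single spo11-Y135F library. The 4 Spo11-active genotypes rise to between 14.1 and 72.1 times the interior density before the start codon, while the control stays at 1.35 there. These multiples depend on each library's interior density as well as on its promoter signal.

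The amount of signal inside the ORFs varied widely between libraries of 1 genotype. The study's methods estimate each library's non-specific reads from the hit rate in the longest ORFs, so interior signal includes such background. How much of it came from breaks was not tested. Interior signal was 7.73, 8.97, 23.5, 42.0 and 2.00 HpM per kb (HpM, hits per total of 1000000 mapped reads) in the 5 sae2Δ ndt80Δ tel1Δ replicates and 48.5, 11.4, 40.1 and 5.98 in the 4 sae2Δ ndt80Δ replicates. It was 19.7, 26.8, 31.2 and 32.3 HpM per kb in sae2Δ tel1Δ and 19.9, 9.59, 20.6, 16.4 and 16.4 in sae2Δ, against 57.9 in spo11-Y135F. The 2 groups with ndt80Δ overlapped every other active group, and all 18 active replicates lay below the control. Replicates 3 and 4 of sae2Δ ndt80Δ and replicates 3 to 5 of sae2Δ ndt80Δ tel1Δ, marked as time-course samples in their deposited names, held both the highest and the lowest values of the sae2Δ ndt80Δ tel1Δ group.

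None of the 4 comparisons of interior signal passed the test. On the log2 scale sae2Δ ndt80Δ tel1Δ was lower than sae2Δ tel1Δ by a mean of -1.34 (two-sided exact permutation test over replicates, adjusted p = 0.317) and lower than sae2Δ ndt80Δ by -0.84 (exact permutation test, adjusted p = 0.603). Leaving out single replicates moved the first between -1.84 (without replicate 4 of sae2Δ ndt80Δ tel1Δ) and -0.74 (without its replicate 5), and the second between -1.40 (without replicate 4 of sae2Δ ndt80Δ) and -0.24 (without replicate 5 of sae2Δ ndt80Δ tel1Δ). The difference of sae2Δ ndt80Δ from sae2Δ was 0.25 (exact permutation test, adjusted p = 0.706), and that of sae2Δ tel1Δ from sae2Δ was 0.75 (exact permutation test, unadjusted p = 0.0397, adjusted p = 0.159). With 4 or 5 replicates a group the smallest unadjusted p of these tests was 0.00794 for 5 against 4.

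The interior signal moved with the share of nuclear reads in the rDNA, a locus outside the set. That share ran from 0.0281% to 4.20% over the 18 active replicates, against 6.49% in the control, and its correlation with interior HpM per kb was r = 0.968 and rho = 0.961 over the 18 replicates (permutation tests, p = 1e-05 each, the smallest that 100000 permutations can give; adjusted over 3 relations, 3e-05 and 1.5e-05). Without the 2 replicates farthest from the median share r was 0.950. The part of the rDNA share in the genotype comparisons was not tested. The depth of 3292558 to 9544086 reads per active replicate left between 0.429 and 58.7 expected interior reads per 200 bp.

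Per bp, long ORFs held less signal than the interiors of the 1906 ORFs of 1500 to 3999 bp in all 18 active replicates. The shorter ORFs had 1.00 to 2.51 times the density of the long ones, against 1.04 times in spo11-Y135F, with 15 of 18 replicates above the control. The mean log2 ratio was 0.25 ± 0.32 (SD, n = 18), and its difference from the control value of 0.06 passed an exact two-sided sign-flip test over replicates (p = 0.000397). The control is a single library taken as a constant, so this p-value holds no control error. At the length limit, the 17 members of 4000 to 4099 bp had a median of 1.01 times the median member density over the 4 genotypes, and the 11 ORFs of 3900 to 3999 bp one of 0.99.

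A second measure was the pairing of strands, because a Spo11 cut leaves a Watson end and a Crick end at a fixed distance. Among hotspots outside the member ORFs the offset with most pairs in sae2Δ was a Crick end 1 bp to the right of a Watson end, and the pairing index was the number of such pairs (each base capped at 10 reads) over the mean at offsets of 20 to 100 bp in both directions. In the interiors the index was 2.70, 4.07, 1.56, 1.11 and 6.12 in sae2Δ ndt80Δ tel1Δ, and 1.35, 2.82, 1.23 and 4.29 in sae2Δ ndt80Δ. It was 1.58, 1.37, 1.26 and 1.29 in sae2Δ tel1Δ and 2.26, 2.57, 1.80, 2.30 and 2.67 in sae2Δ, against 1.02 in spo11-Y135F. In hotspots elsewhere it was 2.20 to 4.64, against 1.34. All 18 active replicates lay above the control in the interiors, as they also did with the 4 kept clusters described further on masked by 100 bp on each side (1.07 to 5.75, against 1.02).

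The pairing index was lower in replicates with a higher rDNA share. Over the 18 replicates the relation was negative (r = -0.791, p = 6e-05; rho = -0.886, p = 3e-05; permutation tests, adjusted p = 9e-05 and 3e-05; r = -0.815 without the 2 farthest replicates). The 4 sae2Δ tel1Δ values lay below all 5 sae2Δ values, a mean log2 difference of -0.75, which did not pass after adjustment over 4 comparisons (two-sided exact permutation test, p = 0.0159, adjusted p = 0.0635). It passed with the 4 kept clusters masked (-0.80, exact permutation test, adjusted p = 0.0317). That mask left in the LYS2 hotspot described further on, which was lower in sae2Δ tel1Δ than in sae2Δ. The rDNA share was 1.66% to 2.58% in sae2Δ tel1Δ and 0.822% to 2.28% in sae2Δ. The parts of LYS2 and of the rDNA share in the pairing difference were not tested. The other 3 comparisons had log2 differences of 0.92 for sae2Δ ndt80Δ tel1Δ over sae2Δ tel1Δ, 0.29 for sae2Δ ndt80Δ tel1Δ over sae2Δ ndt80Δ and -0.12 for sae2Δ ndt80Δ over sae2Δ (exact permutation tests, adjusted p = 0.286, 0.786 and 0.786).

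**Figure D2:**
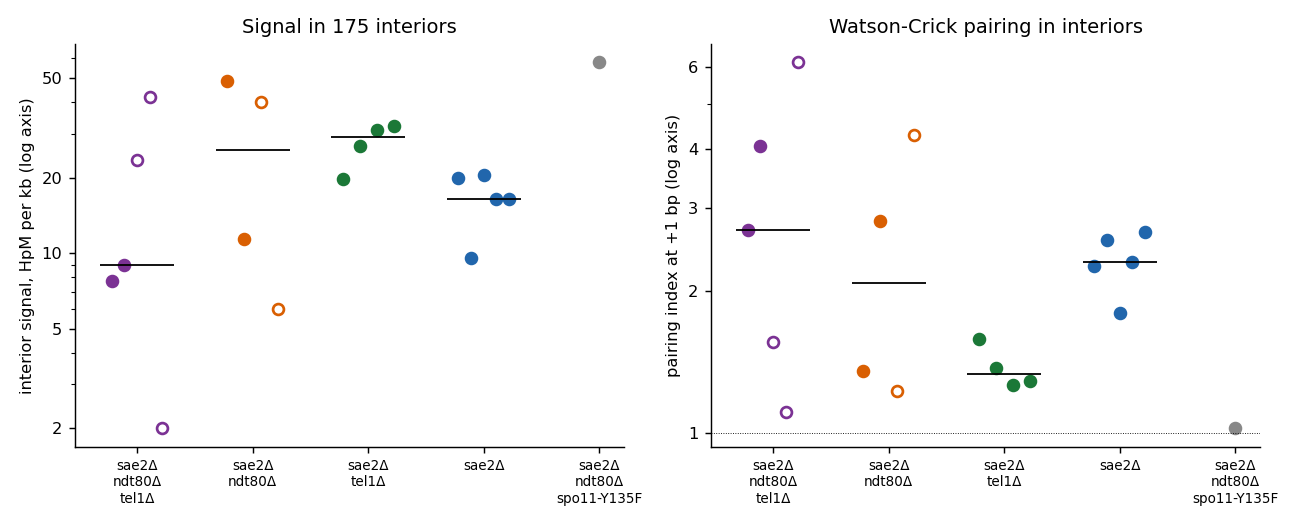
Left, CC-seq signal in the 175 interiors in HpM per kb; right, the Watson-Crick pairing index at +1 bp, both on log axes, with a point per replicate, open points for time-course libraries and a line at the group median. The control library has the highest signal (57.9) and an index of 1.02, below all 18 active replicates (1.11 to 6.12).

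Relative to the median of their library, most members lay close to the control. Each interior's density was divided by its library's median over members, averaged over the 4 genotypes and set against the same value in spo11-Y135F. This ratio had a median of 1.00 over the 175 members, quartiles of 0.97 and 1.06 and a highest value of 7.59. Its median near 1 follows from the scaling to the members' own median, and it does not compare total interior signal with the control. In 6 members all 18 replicates were above the control (LYS2, MHP1, RSF2, TOR2, ROM2 and SSK2), 3.43% of members against 3.32% of all 2081 ORFs of 1500 bp or longer, and in 6 members no replicate was (3.43% against 1.92%). A ratio of at least 1.5 was found in 10 members, 5.71% against 12.1% of all these ORFs. This count rests in part on replicate 5 of sae2Δ ndt80Δ tel1Δ, with 0.429 expected interior reads per 200 bp. Without it TOR2 fell from 1.80 to 1.48 and TOP2 from 1.96 to 1.06, while LYS2, MHP1, PDR10 and PDR15 stayed above 1.5.

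The 5 members with the highest ratio were LYS2, MHP1, PDR10, PDR15 and TOP2. LYS2, which encodes alpha-aminoadipate reductase of lysine synthesis, had a ratio of 7.59, and 3.21 without replicate 5 of sae2Δ ndt80Δ tel1Δ, the library with the lowest interior signal. MHP1, a microtubule-associated protein gene, had 6.42 (3.33 without that library), and the ABC transporter genes PDR10 and PDR15 had 4.87 and 3.11 (1.94 and 2.37 without it). TOP2, the topoisomerase II gene, had 1.96 and only 1.06 without that library, and its median ratio over the 18 replicates was 0.89. Relative density in MHP1 had lowest, median and highest values of 1.39, 10.7 and 67.9 in sae2Δ ndt80Δ tel1Δ, 1.02, 1.91 and 2.74 in sae2Δ ndt80Δ, 2.19, 2.48 and 3.82 in sae2Δ tel1Δ and 1.74, 2.04 and 3.13 in sae2Δ, against 0.99 in the control, so that all 18 replicates were above it.

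At the other end, TSC11 (a TORC2 subunit), DOP1, VPS15 (a kinase of vacuolar sorting), ECM5 and TRM732 (tRNA methylation) had the lowest ratios, 0.83 to 0.87. Their relative densities were 0.907 to 0.995 over the 4 genotypes and 1.08 to 1.16 in the single control library. The low ratios thus hold above-median control values and need not mean fewer breaks. The longest member, REA1, a 14733 bp ORF for the AAA ATPase of ribosome assembly also called MDN1, had a ratio of 0.90, with relative density of 0.54 to 0.97 in sae2Δ ndt80Δ tel1Δ, 0.84 to 1.02 in sae2Δ ndt80Δ, 0.95 to 1.01 in sae2Δ tel1Δ and 0.99 to 1.10 in sae2Δ, against 1.07 in the control. Groups of members with a shared role stayed near 1. The 8 nucleoporins had a median ratio of 1.00 (0.97 to 1.06), the 4 fatty acid synthesis genes 1.01, the 3 myosins 0.99, the 3 glucan synthases 0.96 and the 4 lipid flippases 0.97. The 4 PIK-related kinases had a median of 1.05, with TOR2 highest at 1.80, and the 10 ABC transporters among 11 listed had 1.01, with PDR10 highest. Medians of the other lists ran from 0.96 for the 3 DNA polymerases to 1.16 for the motor genes DYN1 (1.42) and REA1 (0.90). Relative density in DYN1 had a median of 1.05 and a highest value of 8.84 in sae2Δ ndt80Δ tel1Δ. Its medians in the other active genotypes were 0.97 to 1.02, against 1.00 in the control. The lists were drawn up by role, and over the ORFs of 1500 to 3999 bp the median ratio was 1.01.

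The strand pairing of single ORFs spanned a wider range in the active maps than in the control at its upper end. Pooled over the 18 replicates, the index of single members was above 1 in 168 of 175 (96.0% against 91.8% of all 2081 ORFs), with a median of 1.14, while in spo11-Y135F it was above 1 in 88 (50.3% against 55.9%) with a median of 1.00. In 10 members it exceeded 1.79, the highest value of any member in the control (5.71% against 7.4% of all ORFs). These were PDR10 (4.74, against 0.93 in the control), MHP1 (4.21, against 0.82), LYS2 (3.90, against 0.84), TOP2 (2.78, against 1.06), TOR2 (2.71, against 0.85), PDR15 (2.32, against 0.77), BUD4, TCB3, SMC4 and RSF2. FLO1, a flocculin gene, stood apart with 0.26, against 0.15 in the control.

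**Figure D3:**
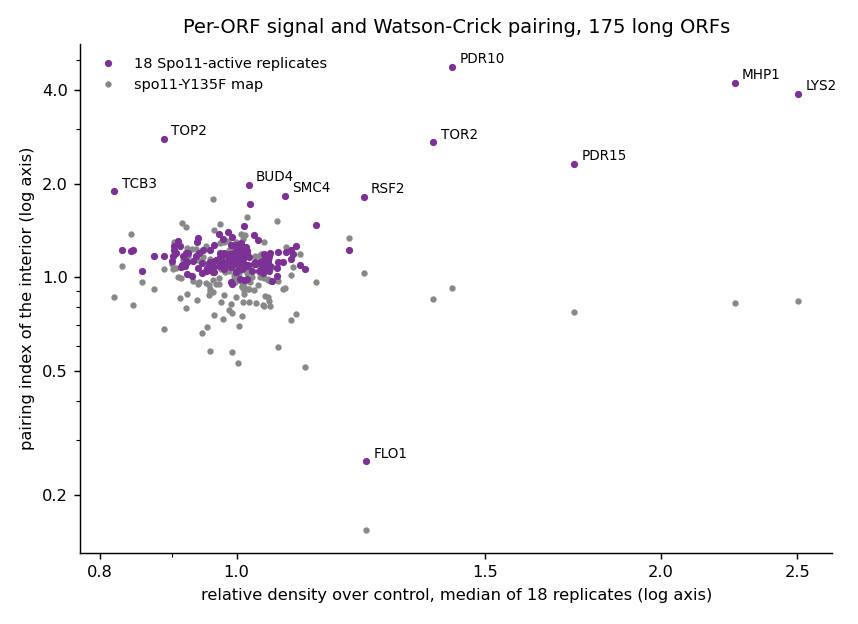
Each of the 175 long ORFs by its relative density over the control (median of 18 replicates, x) and by the Watson-Crick pairing index of its interior (y), pooled over the 18 active replicates or taken in the spo11-Y135F map; both axes are logarithmic. LYS2, MHP1, PDR10, PDR15, TOR2 and TOP2 lie above an index of 2, and FLO1 is the lowest in both maps.

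Break clusters were sought as hotspots of the average map of the 4 active genotypes (smoothed with the Hann window and called at the HpM cut-off of the study's methods, at least 25 bp wide and with 25 reads). Of 3012 hotspots outside the rDNA, 5 (0.166%) had their peak in a long ORF interior, 0.67 per 100 kb against 26.6 per 100 kb in the rest of the genome. A cluster was kept if it had at least 2 times the background predicted from the control in every replicate of at least 1 genotype, and if the control itself was below 2 times its median there. The 4 kept clusters lay in 3 ORFs, MHP1, TOR2 and PDR15, and the fifth hotspot, in LYS2, failed only the control condition. The same cut-off applied to the control map gave 94 hotspots, 2 of them in the interiors. The study's methods instead report that this cut-off called none in spo11-Y135F, and the source of the difference was not tested.

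The 2 clusters in MHP1 lay on chromosome X at 361673 to 361852 and 362148 to 362258 (R64), with peaks 515 and 952 bp past the start codon. MHP1 is on the Watson strand (361249 to 365445), and the first cluster straddles the 5′ edge of the interior, with its peak inside. The first cluster held 5814 reads over the 18 replicates, against 42 in the control, and the second 3018, against 20. Every replicate had at least 2.53 times the predicted background in the first cluster, and 17 of 18 had at least 2 times in the second, the exception being replicate 1 of sae2Δ ndt80Δ (1.63). The base pair of ends with most reads in the second cluster, Watson 362205 with Crick 362206, took 24.9% of its reads, 548 Watson and 203 Crick. The top pairs of the other kept clusters were less even. They had 396 Watson and 74 Crick reads in the first MHP1 cluster, 258 and 16 in PDR15 and 57 and 366 in TOR2.

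The TOR2 cluster lay on chromosome XI at 58907 to 59025, 4392 bp past the start codon and 3032 bp before the stop codon of this Crick-strand gene (55935 to 63359), which encodes a PIK-related kinase of both TOR complexes. It held 3147 reads, against 22 in the control, and its 18 replicates ran from 2.60 to 237 times the predicted background. The other 3 kept clusters peaked less than 1000 bp from the start codon. The PDR15 cluster, on chromosome IV at 1279959 to 1280006, was 773 bp past the start codon (gene 1279210 to 1283799, Watson strand) and held 1128 reads, against 15 in the control. In it 17 of 18 replicates reached 2 times the predicted background, and replicate 3 of sae2Δ ndt80Δ had 1.12 times. No other annotated gene overlapped any of these clusters.

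The hotspot in LYS2 was the strongest of the interiors, on chromosome II at 472123 to 472347, 1684 bp past the start codon of this Crick-strand gene (469748 to 473926). It held 14058 reads over the 18 replicates, against 124 in the control, and all 18 replicates exceeded the predicted background by 2.93 to 859 times. The control was 2.65 times its median in the hotspot, but it was high along the whole LYS2 interior, at 2.21 times on average and at 1.73 to 2.74 times in bins of 200 bp, against 1.34 times in the 2 kb on either side of the ORF. The next highest member in the control, TOP2, was at 1.52 times. All strains carry lys2 and ho::LYS2, and whether the reads came from the LYS2 locus or from ho cannot be told apart.

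**Figure D4:**
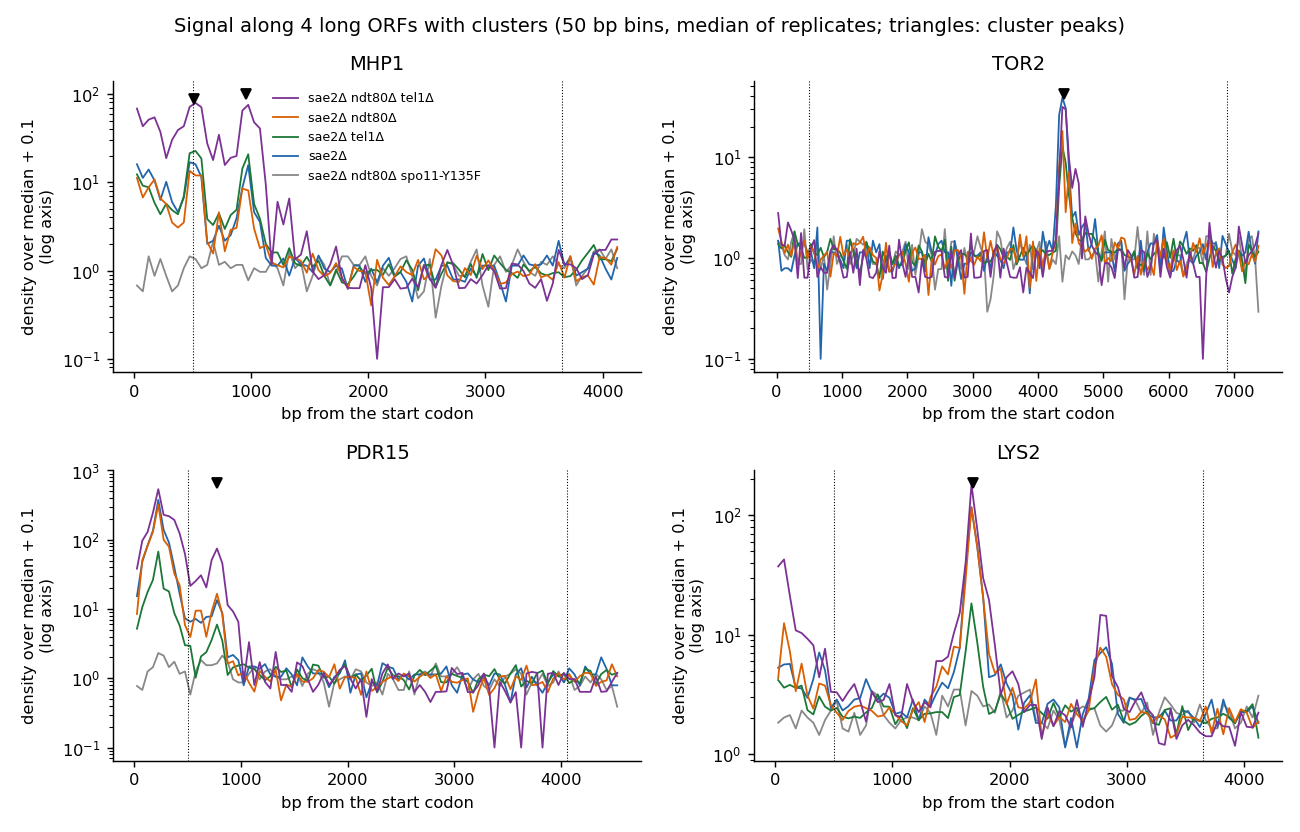
Density of CC-seq ends along MHP1, TOR2, PDR15 and LYS2 in 50 bp bins from the start codon, divided by each library's median member density (plus 0.1, log axis); lines are the median replicate of each genotype and the control library, dotted lines the edges of the interior and triangles the cluster peaks. Sharp peaks stand over a flat floor near 1, except in LYS2, where the control floor lies near 2.21.

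The strength of each cluster was compared between genotypes as NormHpM, the reads after subtraction of the library's median interior density, per 1000000 such reads in all 3012 hotspots. The median hotspot had 134 NormHpM, and the clusters had 246 (LYS2), 97.7 and 50.5 (MHP1), 52.1 (TOR2) and 17.9 (PDR15) as means of the 4 genotypes. LYS2 was thus stronger than 67.2% of all hotspots and PDR15 stronger than 2.26%. Significance was taken from edgeR's quasi-likelihood test on the reads of all 3012 hotspots. The clusters had been found on the average of the genotypes compared, so each genotype's own map was also set against the HpM cut-off. LYS2 reached it in all 4 genotypes, and the first MHP1 cluster in all but sae2Δ ndt80Δ (0.175 HpM). The TOR2 cluster reached it in all but sae2Δ ndt80Δ tel1Δ (0.179 HpM). The second MHP1 cluster reached it only in sae2Δ ndt80Δ tel1Δ (0.404 HpM) and sae2Δ tel1Δ (0.443 HpM), against 0.0996 in sae2Δ ndt80Δ and 0.157 in sae2Δ. PDR15 reached it only in sae2Δ ndt80Δ tel1Δ (0.359 HpM), against 0.153 in sae2Δ ndt80Δ, 0.122 in sae2Δ tel1Δ and 0.190 in sae2Δ, and the average of those 3 genotypes (0.155 HpM) did not reach it. The values of these last 2 clusters are therefore a description of the groups through which they were found.

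The first MHP1 cluster rose without TEL1. NormHpM was 121, 182, 95.4, 96.4 and 102 in sae2Δ ndt80Δ tel1Δ and 54.1, 59.6, 36.3 and 30.5 in sae2Δ ndt80Δ, and it was 160, 160, 172 and 168 in sae2Δ tel1Δ and 56.8, 68.5, 65.4, 49.3 and 66.6 in sae2Δ. The groups with and without TEL1 did not overlap, with or without NDT80. The log2 fold change was 1.18 ± 0.22 (SE) for sae2Δ ndt80Δ tel1Δ over sae2Δ ndt80Δ (edgeR, adjusted p = 0.000316) and 1.37 ± 0.21 for sae2Δ tel1Δ over sae2Δ (edgeR, adjusted p = 3.94e-05). The second cluster, found through the tel1Δ maps, had 77.2, 126, 45.1, 87.4 and 32.4 NormHpM in sae2Δ ndt80Δ tel1Δ and 7.48, 25.4, 19.96 and 9.12 in sae2Δ ndt80Δ, and 82.4, 94.6, 87.2 and 88.0 in sae2Δ tel1Δ and 20.1, 23.3, 27.2, 25.4 and 27.6 in sae2Δ. All of its tel1Δ replicates lay above those with TEL1, as the choice of the cluster favours.

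LYS2 went the other way without TEL1. It had 76.5, 83.1, 88.9 and 98.7 NormHpM in the 4 sae2Δ tel1Δ replicates and 330, 288, 266, 227 and 356 in sae2Δ, with no overlap, and the reads fell by 1.64 ± 0.22 on the log2 scale (SE; edgeR, adjusted p = 1.04e-05). With ndt80Δ it had 178, 189, 224, 220 and 361 in sae2Δ ndt80Δ tel1Δ and 292, 275, 378 and 525 in sae2Δ ndt80Δ, groups that overlapped, and the log2 change was -0.63 ± 0.21 (edgeR, adjusted p = 0.0221). This second call was lost when replicate 4 of sae2Δ ndt80Δ was left out (-0.40, edgeR adjusted p = 0.124), when replicate 1 or 2 of sae2Δ ndt80Δ tel1Δ was (edgeR, adjusted p = 0.0594 and 0.0558) and when only these genotypes were fitted (edgeR, adjusted p = 0.098). In the tel1Δ strains LYS2 was higher with ndt80Δ, by 1.33 ± 0.22 for sae2Δ ndt80Δ tel1Δ over sae2Δ tel1Δ (edgeR, adjusted p = 0.000206).

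The PDR15 cluster was found through the triple mutant, so its values are given as a description. Its edgeR calls, listed further on, are not independent of that choice. NormHpM was 37.1, 44.7, 36.2, 25.2 and 19.97 in sae2Δ ndt80Δ tel1Δ, 18.3, 20.8, 3.50 and 9.79 in sae2Δ ndt80Δ, 7.58, 10.4, 12.97 and 10.5 in sae2Δ tel1Δ and 17.7, 15.4, 13.2, 13.05 and 18.1 in sae2Δ. The triple mutant overlapped sae2Δ ndt80Δ at 1 replicate and lay above all of sae2Δ tel1Δ. The smoothed peak of the cluster in the average map, 0.206 HpM, was just above the cut-off. PDR15 was no longer among the ORFs with clusters without replicate 2 of sae2Δ ndt80Δ tel1Δ, without the time-course libraries, at the lower and the higher HpM cut-off and with the wider Hann window.

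The TOR2 cluster passed no comparison. It had 30.9, 36.7, 35.1, 17.7 and 17.6 NormHpM in sae2Δ ndt80Δ tel1Δ, 52.4, 51.8, 32.6 and 13.2 in sae2Δ ndt80Δ, 45.1, 62.7, 35.9 and 53.7 in sae2Δ tel1Δ and 170, 76.0, 85.9, 46.4 and 91.4 in sae2Δ, so the groups of each comparison overlapped. The log2 fold change was -0.83 ± 0.36 for sae2Δ tel1Δ over sae2Δ (edgeR, adjusted p = 0.0679), which passed as lower in 5 of 17 alternatives (edgeR and DESeq2, adjusted p from 0.00308 to 0.237), and -1.15 ± 0.37 for sae2Δ ndt80Δ over sae2Δ (edgeR, adjusted p = 0.195), with an approximate 95% interval of -1.87 to -0.43.

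Counted over the 4 kept clusters, edgeR called 3 higher in sae2Δ ndt80Δ tel1Δ than in sae2Δ ndt80Δ (both MHP1 clusters and PDR15), beside 13.4% of all 3012 hotspots, and 2 higher in sae2Δ tel1Δ than in sae2Δ (both MHP1 clusters), beside 16.7%. It called 1 (PDR15) higher in sae2Δ ndt80Δ tel1Δ than in sae2Δ tel1Δ, beside 21.1%, and the same 1 for the interaction of both deletions, beside 3.15% of hotspots with a higher and 0.564% with a lower interaction. The second MHP1 cluster and PDR15 were found through groups tested here as higher. Their calls are no support, and these counts cannot be read against the shares of all hotspots. Of the clusters called, only the first in MHP1 also reached the cut-off in a genotype with TEL1 (sae2Δ, 0.313 HpM). None was lower in the first 3 comparisons, beside 27.3%, 27.8% and 12.5% of hotspots, but TOR2 and PDR15 were lower in sae2Δ tel1Δ than in sae2Δ when only these genotypes were fitted (beside 40.1% of hotspots) and when the time-course libraries were left out (beside 40.2%). None changed in sae2Δ ndt80Δ over sae2Δ, where 0.0332% of hotspots were higher and 0% lower. At an unadjusted p below 0.05, 1 of the 4 did in edgeR (TOR2), beside 16.5% of all hotspots, and DESeq2 called 0, beside 1.03% of hotspots higher and 1.06% lower. With TMM factors in place of hotspot totals the split over all hotspots was 665 higher and 696 lower (403 and 822 with totals) for sae2Δ ndt80Δ tel1Δ over sae2Δ ndt80Δ and 718 and 778 (502 and 836) for sae2Δ tel1Δ over sae2Δ. It was 646 and 554 (637 and 377) for sae2Δ ndt80Δ tel1Δ over sae2Δ tel1Δ and 165 and 79 (95 and 17) for the interaction, and with TMM the kept clusters called numbered 3, 2, 1 and 1. The comparisons share samples, so their calls are not independent. Within the time-course libraries the first MHP1 cluster had a mean of 97.9 NormHpM in sae2Δ ndt80Δ tel1Δ (n = 3) and 33.4 in sae2Δ ndt80Δ (n = 2), and in the others 151 and 56.8 (n = 2 each).

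**Figure D5:**
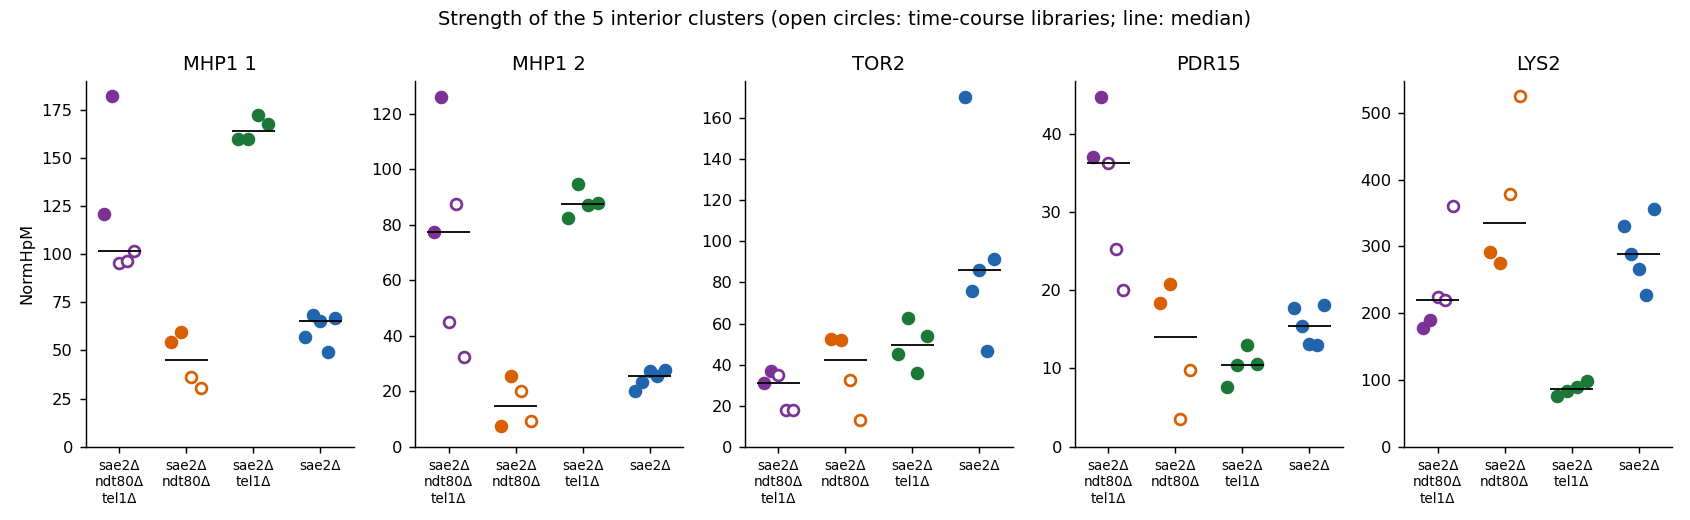
NormHpM of the 5 interior hotspots in each replicate, by genotype, with open points for time-course libraries and a line at the group median; the axes start at 0. The MHP1 clusters are higher in both tel1Δ groups than in the groups with TEL1, and LYS2 is lowest in sae2Δ tel1Δ (76.5 to 98.7).

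The kept clusters made up a small part of the interior reads. With 382 bp inside the interiors, 0.0512% of the interior length, they held 2.55%, 3.49%, 0.630%, 0.276% and 7.94% of interior reads in sae2Δ ndt80Δ tel1Δ and 0.133%, 1.11%, 0.149% and 1.04% in sae2Δ ndt80Δ. The share was 1.00%, 0.809%, 0.592% and 0.584% in sae2Δ tel1Δ and 1.12%, 1.71%, 0.731%, 0.695% and 1.04% in sae2Δ, against 0.0512% in spo11-Y135F. The clusters were kept for reads above the level predicted from the control, so a share above the control follows from the rule. The genotypes overlapped, with differences in percentage points of 2.37 for sae2Δ ndt80Δ tel1Δ over sae2Δ ndt80Δ, 2.23 for sae2Δ ndt80Δ tel1Δ over sae2Δ tel1Δ, -0.45 for sae2Δ ndt80Δ over sae2Δ and -0.31 for sae2Δ tel1Δ over sae2Δ (two-sided exact permutation tests, adjusted p = 0.214 each). Replicate 5 of sae2Δ ndt80Δ tel1Δ decided the size of the first 2, which were 1.13 and 0.99 without it.

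The reads of the 4 kept clusters lay mostly on 1 strand. The coding strand of the gene carried 81.2% and 77.6% of reads in the MHP1 clusters, 87.5% in TOR2 and 84.5% in PDR15. In LYS2 it carried 59.6%, with a Watson share from 34.6% to 55.3% over the replicates, 3 of which were above 50%. Over the 18 replicates the Watson share was 72.9% to 94.0% in the first MHP1 cluster, on a Watson-strand gene, and 3.92% to 23.8% in TOR2, on a Crick-strand gene, so no replicate crossed 50%. Over all 3012 hotspots the quartiles of the Watson share were 44.8% and 55.8%, and 18 (0.598%) were further from 50% than TOR2, 24 (0.797%) than PDR15, 48 (1.59%) than the first MHP1 cluster, 104 (3.45%) than the second and 925 (30.7%) than LYS2.

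As whole interiors, no long ORF passed the test between genotypes. In edgeR's quasi-likelihood test over the 2081 ORFs of 1500 bp or longer, scaled with TMM, 0 of 175 members had an adjusted p below 0.05 in any of the 4 comparisons or in the interaction, and 0% of all ORFs did. At an unadjusted p below 0.05 the members were 12 for sae2Δ ndt80Δ tel1Δ over sae2Δ tel1Δ (6.86%, beside 8.17% of all ORFs), 9 for sae2Δ ndt80Δ tel1Δ over sae2Δ ndt80Δ (5.14%, beside 6.92%) and 0 for sae2Δ ndt80Δ over sae2Δ and for sae2Δ tel1Δ over sae2Δ (beside 1.63% and 1.3%). DESeq2 called 4, 4, 0 and 0 members in the same order, the first 2 counts each 2.34% of the 171 members with an adjusted p, beside 6.77% of 1403 ORFs and 7.99% of 839. The members called were MHP1, PDR15 and RSF2, a zinc-finger gene, in both of the first 2, TOP2 in the first and the heme-responsive factor gene HAP1 in the second, all higher. In the first of these comparisons the 2 MHP1 clusters themselves were not called higher, with values given further on. In simulated counts with this design edgeR recovered 95% of ORFs changed 2-fold for sae2Δ tel1Δ over sae2Δ (2081 ORFs). The simulation used a single fixed dispersion, not the spread of the real replicates, and no ndt80Δ comparison was simulated. The recovery therefore does not show how many real changes the tests above could find.

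The count of members called depended on how the 5 time-course libraries were treated. With their series as a factor edgeR called 0 members in every comparison. Without them 21 of 175 members passed for sae2Δ ndt80Δ tel1Δ over sae2Δ tel1Δ (12 higher, 9 lower, beside 12.9% of all ORFs higher and 2.16% lower) and 12 for sae2Δ ndt80Δ tel1Δ over sae2Δ ndt80Δ (8 higher, 4 lower, beside 10.6% higher and 1.06% lower), with 2 replicates left in each ndt80Δ group. MHP1 had a log2 fold change of 1.86 ± 0.29 and 2.45 ± 0.37 in these comparisons, PDR15 2.33 ± 0.29 and 1.54 ± 0.35 and RSF2 1.26 ± 0.14 and 0.91 ± 0.17 (SE; edgeR, largest adjusted p of the 6 = 0.00965). Of the members that were lower, SIR4, a silencing factor gene, had the largest change in both, at -0.50 ± 0.11 and -0.43 ± 0.12 (edgeR, adjusted p = 0.0042 and 0.0279). For sae2Δ ndt80Δ tel1Δ over sae2Δ tel1Δ the 2 MHP1 clusters were not called higher. Their log2 fold changes with all 18 replicates were -0.45 ± 0.21 and -0.26 ± 0.31 (SE; edgeR, adjusted p = 0.109 and 0.541). Over the alternatives they ran from -0.64 to -0.094 and from -0.53 to 0.18. Interiors were scaled with TMM and clusters with hotspot totals, and the part of the scaling was not tested.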

How the data were processed

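CC-seq libraries of 5 genotypes were analysed as deposited. Per the study's methods, the authors mapped reads with Bowtie2 to a reference based on R64 and deposited counts of Spo11-linked 5′ ends per base and strand, raw and not normalised; the reference has insertions on chromosome III, which was left out. The control listing holds 2 maps one after the other, and the first (3622725 reads) was used. The control and the time-course libraries also list reads on sequences other than the 16 chromosomes. ORF coordinates came from RefSeq R64.

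The 175 members, the ORF table of 1500 bp or longer and the role lists were chosen with earlier results of these data known. Named genes were those with kept clusters, the 5 highest and 5 lowest ratios to the control, the largest called changes in each direction, LYS2 and the longest member. ORFs named for strand pairing were chosen after their values were seen.

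Counts were summed over interiors and hotspots. ORF counts were tested with edgeR 4.0.16 (quasi-likelihood, TMM, filterByExpr, Benjamini-Hochberg over all features, threshold 0.05) in R 4.3.3 with all 18 replicates in 1 fit, and hotspot counts in the same way with hotspot totals as library sizes. Single values per replicate were compared by exact permutation with SciPy 1.17.1. Alternatives included DESeq2 1.42.0, other scalings and cut-offs, a replicate block, the time-course series as a factor or left out, and each replicate left out in turn. Deviations of member densities from the group mean correlated at r = 0.32 to 0.36 in the 3 same-numbered pairs of sae2Δ ndt80Δ over sae2Δ. The 17 different-numbered pairs ran from -0.72 to 0.61, so these values do not settle whether replicate numbers pair the samples. The main tests were unpaired, and the replicate block was the paired alternative. In the other 3 comparisons same-numbered pairs had r from -0.55 to 0.67, with at least 1 pair per comparison below 0.1. On simulated counts for sae2Δ tel1Δ over sae2Δ the tests recovered 95% of 2-fold changes with 6 false calls (2081 ORFs) and 91% with 11 false calls (3012 hotspots). A single fixed dispersion was used there, not the spread of the real replicates. No genome sequence was used here.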

Additional observations from a re-analysis of the deposited data

Results flagged for a closer look

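The LYS2 hotspot had 361 NormHpM in replicate 5 of sae2Δ ndt80Δ tel1Δ, far from the other 4 replicates of that genotype, which ranged from 178 to 224. It was the 1 such value among 36 groups of replicates tested, where chance gives about 1 in 20. That replicate is a time-course library with the lowest interior signal (2.00 HpM per kb) and the lowest rDNA share (0.0281%), and the part of either in the value was not tested.

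For the PDR15 cluster the fitted effect of ndt80Δ differed without and with TEL1 by 1.53 on the log2 scale (edgeR, adjusted p = 0.0473 over the 3012 hotspots), a call that was lost with a replicate block (1.62, edgeR, adjusted p = 0.109). The cluster reached the HpM cut-off only in the map of sae2Δ ndt80Δ tel1Δ, so the test is not independent of how the cluster was found. All 5 sae2Δ ndt80Δ tel1Δ replicates (19.97 to 44.7 NormHpM) lay above the 4 of sae2Δ tel1Δ (7.58 to 12.97), while sae2Δ ndt80Δ (3.50 to 20.8) overlapped sae2Δ (13.05 to 18.1).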

How the results depend on the processing

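The calls on the first MHP1 cluster in both tel1Δ comparisons held in all 17 alternatives run for each, as did LYS2 for sae2Δ tel1Δ over sae2Δ and for sae2Δ ndt80Δ tel1Δ over sae2Δ tel1Δ. The number of ORFs with clusters was less stable. It was 1 with 1000 bp trimmed at each end (TOR2), 8 with background-scaled windows, an alternative chosen after seeing the data, and 2 to 3 with each replicate left out in turn. PDR15 was not among them in 6 settings, and at the lower cut-off PDR10 was. Whole-interior calls numbered 4, 4 and 1 with DESeq2 and 21, 12 and 8 without the time-course libraries, for sae2Δ ndt80Δ tel1Δ over sae2Δ tel1Δ, over sae2Δ ndt80Δ and for the interaction, and 2 for sae2Δ tel1Δ over sae2Δ when only those genotypes were fitted. Leaving out each replicate gave 0 to 3 and 0 to 1 for the first 2, the highest without replicate 4 of the triple mutant. Cluster calls were 4 (2 higher, and TOR2 and PDR15 lower) for sae2Δ tel1Δ over sae2Δ when only those genotypes were fitted and without time-course libraries, and for sae2Δ ndt80Δ tel1Δ over sae2Δ tel1Δ 2 when only those were fitted (PDR15 higher, TOR2 lower) and 1 to 2 with each replicate left out (the first MHP1 cluster lower without replicate 2 of the triple mutant). The pairing difference of sae2Δ tel1Δ over sae2Δ passed without the cap (-1.21), with the 4 kept clusters but not LYS2 masked (-0.80) and with libraries of 1 replicate number kept apart (-0.81). Directions that turned belonged to differences that passed no test. For sae2Δ ndt80Δ over sae2Δ, pairing was 0.21 by presence or absence and -0.46 to 0.14 with each replicate left out (0.10 without replicate 1 of sae2Δ ndt80Δ), signal was -0.20 to 0.81 (-0.20 without replicate 1 and -0.10 without replicate 3 of sae2Δ ndt80Δ), and the cluster share was 0.093 at the lower HpM cut-off. Pairing of sae2Δ ndt80Δ tel1Δ over sae2Δ ndt80Δ was -0.019 to 0.63 with each replicate left out. With the time-course series as a factor and without those libraries, sae2Δ ndt80Δ over sae2Δ was -0.023 and -0.053 for LYS2, 0.018 and 0.054 for the first MHP1 cluster and 0.26 and 0.44 for PDR15, and 0.014 with the factor for the second MHP1 cluster, whose sae2Δ ndt80Δ tel1Δ over sae2Δ tel1Δ value was 0.090 and 0.18. PDR15 for sae2Δ ndt80Δ over sae2Δ was -0.28 to 0.14 with each replicate left out (0.12 without replicate 4 of sae2Δ ndt80Δ). A replicate block turned pairing of sae2Δ ndt80Δ tel1Δ over sae2Δ ndt80Δ to -0.019 and took the count of cluster interactions to 0 (PDR15, 1.62, edgeR adjusted p = 0.109), and changed no other call. Scaling ORF counts to nuclear reads outside the rDNA in place of TMM moved the median of all 2081 ORFs to 0.73 for sae2Δ ndt80Δ over sae2Δ, -0.69 for sae2Δ ndt80Δ tel1Δ over sae2Δ tel1Δ, 0.75 for sae2Δ tel1Δ over sae2Δ and -0.68 for sae2Δ ndt80Δ tel1Δ over sae2Δ ndt80Δ, with 0 members called. The depth of the libraries with low interior signal, 0.429 expected reads per 200 bp in the lowest, limits values of single ORFs.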

Other observations

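The coding strand carried more ends than the template strand near the 5′ end of the long ORFs, a pattern looked for after the strand split of the clusters was seen. In the first 500 bp the coding strand had 60.1% ± 7.6 of ends (SD, n = 18 active replicates), against 49.4% in spo11-Y135F, and in the 500 bp before the start codon 56.6% ± 1.7, against 49.3%. From 500 to 1000 bp it had 56.8% ± 6.7, against 49.5%. With every interior hotspot, LYS2 included, and the background-scaled windows described below masked, the coding strand had 54.1%, against 49.6%. All 18 replicates were above the control in each of these regions (two-sided exact sign-flip tests over replicates, p = 7.63e-06 each, the smallest possible). As the control is a single library taken as a constant, the sign-flip p-values here hold no control error. From 1000 bp to the 3′ edge the coding-strand share was 51.6% ± 2.7, against 50.5%, with 12 of 18 replicates above (exact sign-flip test, p = 0.017, adjusted over 10 tests 0.0189). With the same hotspots and windows masked 10 of 18 were above (exact sign-flip test, p = 0.348). The interiors of ORFs of 1500 to 3999 bp had 53.7% ± 2.8 on the coding strand, against 50.1% in the control, with all 18 replicates above it (exact sign-flip test, p = 7.63e-06), so the excess was not limited to long ORFs. Means of the first 500 bp were 67.5% in sae2Δ ndt80Δ tel1Δ, 59.0% in sae2Δ ndt80Δ, 57.5% in sae2Δ tel1Δ and 55.8% in sae2Δ, and their differences were not tested.

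Windows scaled to each library's own background, added after seeing the data, marked 5 ORFs beyond the 3 with kept clusters. In PDR10 the window began at the 5′ edge of the interior, at 932303 to 932502 on chromosome XV, and its lowest, median and highest values over the median member density were 2.14, 12.8 and 452 in sae2Δ ndt80Δ tel1Δ, 2.18, 10.6 and 91.3 in sae2Δ ndt80Δ, 2.11, 2.80 and 3.67 in sae2Δ tel1Δ and 6.83, 8.92 and 21.3 in sae2Δ, against 1.18 in the control. The windows of RPO31, which encodes the largest subunit of RNA polymerase III, and of the kinase gene RIM15 were also within 100 bp of an interior edge. BUD4, a bud site gene, had one 454 bp inside the edge, with 8 reads in the single control library and 326 summed over the 18 replicates. It was called only in the 2 tel1Δ genotypes. Its median value over the median member density was 7.15 in sae2Δ ndt80Δ tel1Δ and 1.62 (lowest 0.74) in sae2Δ ndt80Δ. It was 3.02 in sae2Δ tel1Δ and 4.88 in sae2Δ, against 0.84 in the control. LYS2 had one apart from its hotspot, at 471050 to 471173 on chromosome II, with 1182 reads over the 18 replicates.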
